A study of Homo sapiens with 16 samples.

Results

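S100 genes encode small EF-hand calcium-binding proteins, and 10 of them were followed here across 2 multiple myeloma cell lines treated with inhibitors of the histone methyltransferases EZH2 and G9a. The members were S100A8, S100A9, S100A12, S100A4, S100A6, S100A10, S100A11, S100A13, S100A2 and S100P, taken as the probes that carry one of these symbols in the scanner files, which gave 12 probes for 10 of the 32080 gene symbols on the array. The family was chosen from its levels in all 8 groups, so its levels and differences are given as a description with no test. RPMI-8226 and MM.1S, both lines of malignant plasma cells, were each cultured for 6 days with DMSO (the vehicle), with the EZH2 inhibitor GSK126 at 1 μM, with the G9a inhibitor UNC0638 at 1 μM, or with GSK126 + UNC0638 at 1 μM each. Each of these 8 groups had 2 samples, named biological replicates by the study, and each sample was hybridised to 1 one-colour Agilent array. No group carried a genetic change made for the experiment. Levels are log2 intensities relative to the 75th percentile of the same array, so that 0 is a bright signal, and a level compares samples for 1 probe but not one probe with another. Differences without the word fold are on the log2 scale.

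S100 proteins act inside cells as calcium sensors that change shape and grip partner proteins, and some are released and act on receptors such as RAGE and TLR4. S100A8 and S100A9 form the heterodimer calprotectin, which together with S100A12 is abundant in neutrophils and monocytes, whereas S100A10 and S100A11 bind annexins at membranes. EZH2 methylates histone H3 at lysine 27 and G9a methylates it at lysine 9, and both marks are associated with silenced genes.

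The probes of 9 of the 10 genes lay in 1 stretch of chromosome 1, from S100A10 at chr1:151955420-151955479 to S100A13 at chr1:153591285-153591344 on GRCh37, and S100P lay apart at chr4:6698819-6698878. S100A9, S100A12 and S100A8 are neighbours in that order, with no other S100 gene between them. Stretches of the promoter windows of these 3 genes are shown because the outer pair moved together in RPMI-8226 cells while S100A12, in the middle, stayed below detection. They are RefSeq sequence on GRCh38.p14, each 120 bases long, written 5′ to 3′ on the strand of the gene, with motif matches in capitals. S100A9 is on the plus strand at chr1:153357723-153357842, S100A12 on the minus strand at chr1:153375612-153375731 and S100A8 on the minus strand at chr1:153391085-153391204. The S100A12 stretch ends just inside the annotated gene, and the S100A8 stretch lies within the annotated extent of its gene, which reaches beyond the start used for the window.
S100A9: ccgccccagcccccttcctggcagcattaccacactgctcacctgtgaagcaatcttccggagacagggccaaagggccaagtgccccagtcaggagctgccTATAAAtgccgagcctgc
S100A12: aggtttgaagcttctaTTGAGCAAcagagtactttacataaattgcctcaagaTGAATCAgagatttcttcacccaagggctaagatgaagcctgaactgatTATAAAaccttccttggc
S100A8: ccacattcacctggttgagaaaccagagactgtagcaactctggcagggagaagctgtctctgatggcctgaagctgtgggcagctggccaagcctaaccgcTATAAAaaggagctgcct

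The capitals mark TATAAA in all 3 stretches, TTGAGCAA, a match to the C/EBP letters TTGCNNAA read on the opposite strand, and TGAATCA, a match to the AP-1 letters TGANTCA. All 10 members had a promoter in the RefSeq table, counted from 250 bases before to 50 bases after the annotated start, and both strands were searched. TATAAA, added after the sequences were seen, occurred in 5 of the 10 promoters (S100A8, S100A9, S100A12, S100A4 and S100P) and in 11.5% of the 35116 promoters in the table. The C/EBP letters occurred in 2 of 10 (S100A12 and S100A11) against 10.5%. The PU.1 letters GAGGAA occurred in 2 of 10 (S100A9, 208 bases before the start, and S100P) against 27.9%, and the AP-1 letters in 1 of 10 against 7.71%. No member promoter held the STAT letters TTCNNNGAA, found in 7.66% of promoters, or the interferon response letters GAAANNGAA, found in 8.11%. GAGGAA and GAAANNGAA can overlap each other. A match is a run of letters and not a measured site.

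Of the 10 genes, S100A10, S100A11, S100A13 and S100A2 were above background on all 16 arrays, and S100A12 and S100P on none. S100A4 was above background on 8 of 8 RPMI-8226 arrays and 4 of 8 MM.1S arrays, S100A6 on 8 and 6, S100A9 on 6 and 3, and S100A8 on 6 and 1. Above background means that the scanner software marked the spot as well above its local background. Where a gene was not above background on either array of a group, the fold change is a lower bound, computed on each array of that group against the dimmest signal marked as above background, or against the probe itself where that was brighter. The number of arrays limits the precision throughout.

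The 75th percentile of the arrays ranged from 255.8 to 348.6 intensity units in RPMI-8226 and from 431.2 to 476.7 in MM.1S, and 46.5% to 49.7% and 49.95% to 52.85% of spots were above background. All arrays of a line shared 1 slide and 1 scan, so line and slide cannot be told apart, while treatments of 1 line were compared within a slide. Of 11 plasma cell marker genes, 10 were above background in every group of both lines. RNA was measured in bulk, so fewer cells expressing a gene and less RNA per cell cannot be told apart.

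S100A8 and S100A9, the calprotectin subunits, were the members with the largest differences in RPMI-8226. S100A8 was not above background with DMSO, at levels of -5.07 and -6.10. It reached -2.50 and -3.92 with GSK126, -2.46 and -3.51 with UNC0638, and 2.87 and 0.72 with both inhibitors. All treated arrays lay above both DMSO arrays, and both combination arrays lay above every single-agent array. Against DMSO this was at least 2.27-fold higher with GSK126, at least 2.65-fold with UNC0638 and at least 73.1-fold with the combination. The combination was 32.2-fold above GSK126 alone (log2 difference 5.01, SE 0.823) and 27.6-fold above UNC0638 alone (4.79). The 2 combination arrays differed from each other by more than 2 log2 units, the widest replicate gap of any member with that treatment in this line.

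S100A9 followed a similar course in RPMI-8226. Its levels were -6.72 and -6.36 with DMSO, not above background, -2.78 and -4.00 with GSK126, -2.55 and -3.48 with UNC0638, and 1.59 and 0.10 with both. The groups separated as they did for S100A8, with the single agents overlapping each other. S100A9 was at least 2.005-fold above DMSO with GSK126, at least 2.60-fold with UNC0638 and at least 37.7-fold with the combination. It was 18.8-fold higher with the combination than with GSK126 alone (4.23, SE 0.61) and 14.5-fold higher than with UNC0638 alone (3.86). The S100A9 probe spans 2270 bases of the genome (chr1:153330874-153333143, plus strand, GRCh37) although it is 60 bases long, so it crosses an intron and reads spliced RNA, and its sequence is shown for that reason.
S100A9 probe: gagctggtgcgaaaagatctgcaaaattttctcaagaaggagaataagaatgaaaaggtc

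In MM.1S the calprotectin subunits stayed near background. S100A8 was at -6.70 and -6.58 with DMSO, -6.66 and -6.07 with GSK126, and -5.84 and -6.07 with UNC0638, none of them above background. With the combination it was at -3.04, above background, and -5.25, not above background, which gave at least 1.56-fold with 1 array detected. S100A9 was at -7.09 and -6.96 with DMSO, -7.03 and -5.56 with GSK126, -5.43 and -3.73 with UNC0638, and -4.64 and -3.32 with the combination. The last 2 values and the second UNC0638 array were above background, giving at least 1.15-fold for UNC0638 and at least 1.75-fold for the combination. Under the combination, S100A9 was 28.3-fold higher in RPMI-8226 than in MM.1S.

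S100A12, the third calgranulin of myeloid cells, was not above background on any array with either of its 2 probes. Its levels ran from -7.00 to -4.33 over all arrays and both probes, and the highest were -4.33 and -4.82, the second and the main probe on the first RPMI-8226 combination array, and -4.99 on 1 MM.1S UNC0638 array. No fold is given for signals that are background in both groups.

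**Figure D1:**
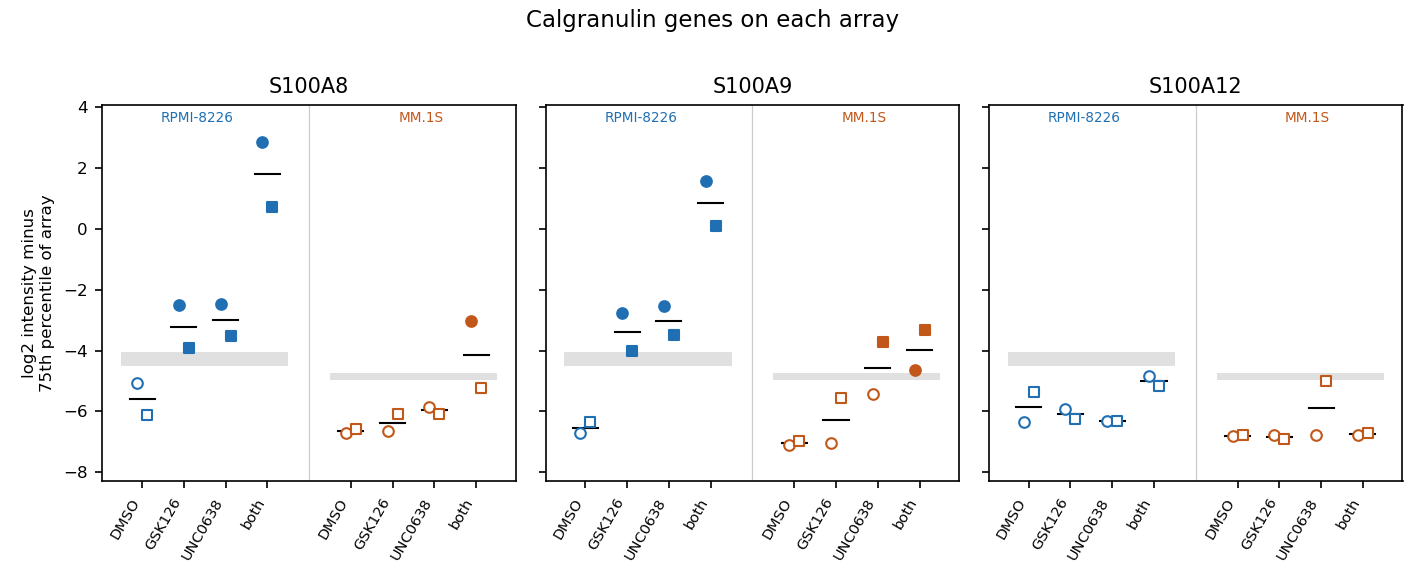
Levels of S100A8, S100A9 and S100A12 (log2 intensity relative to the 75th percentile of the array, y axis) in each group of RPMI-8226 and MM.1S (x axis). Circles are replicate 1 and squares replicate 2, filled where well above background, black lines are means of 2 arrays, and the grey band is the range over the arrays of the lowest signal well above background. S100A8 and S100A9 leave the band in RPMI-8226, furthest with both inhibitors, while S100A12 has open symbols on every array.

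S100A10, the p11 protein that pairs with annexin A2 at the plasma membrane, was the only member for which GSK126 alone gave over 2-fold in both lines with all arrays measured. In MM.1S its levels were 0.69 and 0.47 with DMSO, 2.31 and 2.71 with GSK126, 0.98 and 1.37 with UNC0638, and 2.90 and 3.47 with the combination. In RPMI-8226 they were 3.52 and 3.40, 4.65 and 4.44, 3.64 and 3.74, and 5.02 and 4.82 in the same order. In both lines all treated arrays lay above the DMSO arrays, and the order was DMSO, UNC0638, GSK126, combination with no overlap between neighbours. GSK126 gave 3.81-fold in MM.1S (1.93, SE 0.247) and 2.12-fold in RPMI-8226 (1.08, SE 0.152), and UNC0638 gave 1.51-fold and 1.18-fold. The combination gave 6.08-fold and 2.76-fold. Its log2 difference exceeded the sum of the single-agent differences by 0.08 in MM.1S and by 0.15 in RPMI-8226, less than the standard error of a single difference in either line. For S100A8 in RPMI-8226 the same excess was 2.41 and for S100A9 0.71, but these sums rest on DMSO signals at background.

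S100A6, or calcyclin, a calcium sensor found in many dividing cell types, was bright in one line and dim in the other, and its treated arrays lay furthest from DMSO in the line where it was dim. In RPMI-8226 it was bright in every group, from 6.17 to 6.68. In MM.1S it was at -4.75 and -4.71 with DMSO, not above background, and at -4.00 and -4.03 with GSK126, -2.57 and -1.79 with UNC0638, and -1.45 and -0.46 with the combination. The 4 MM.1S groups did not overlap, and in that line the order placed UNC0638 above GSK126, the reverse of S100A10. Against DMSO, S100A6 was nominally at least 1.64-fold higher with GSK126, at least 5.85-fold with UNC0638 and at least 13.7-fold with the combination. Its DMSO signals were brighter than the dimmest detected signal of their arrays, so these bounds are the plain ratios to signals not above background. The combination was 8.38-fold above GSK126 alone (3.07, SE 0.368). In RPMI-8226 the combination differed from DMSO by 0.30 on the log2 scale (SE 0.157). The S100A6 probe (chr1:153507255-153507685, minus strand, GRCh37) also crosses an intron, spanning 431 bases.
S100A6 probe: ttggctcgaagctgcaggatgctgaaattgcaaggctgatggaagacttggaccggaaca

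S100A4, a metastasis-associated member that binds nonmuscle myosin, showed the same division between lines. With DMSO its level was 6.64 and 6.63 in RPMI-8226 but -4.99 and -6.14 in MM.1S, where it was not above background, a difference of at least 2734-fold. S100A6 differed by nominally at least 2134-fold between the same groups, which is the plain ratio to MM.1S signals not above background. S100A10 differed 7.34-fold, S100A2 2.22-fold, S100A11 1.99-fold and S100A13 1.54-fold. In MM.1S, S100A4 was at -5.23 and -5.12 with GSK126, not above background, at -3.94 and -4.18 with UNC0638, and at -4.03 and -3.31 with both. UNC0638 arrays and combination arrays overlapped each other and lay above all DMSO and GSK126 arrays, at least 1.65-fold and at least 2.16-fold above DMSO. In RPMI-8226, S100A4 was at 6.86 and 6.71 with GSK126, 6.71 and 6.80 with UNC0638 and 7.02 and 6.91 with the combination, and the last differed from DMSO by 0.33 on the log2 scale (SE 0.135).

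Another background method (normexp, with 50 intensity units added to every signal) gave smaller differences for these dim probes. Added units by themselves shrink log2 differences of signals this dim, so their part and that of the subtraction cannot be told apart. With it, the RPMI-8226 log2 differences from DMSO became 0.60, 0.62 and 4.12 for S100A8 and 0.64, 0.68 and 3.41 for S100A9, in the order GSK126, UNC0638, combination, and those of S100A6 in MM.1S became 0.14, 0.98 and 1.87. S100A4 in MM.1S was left with 0.22 for UNC0638 and 0.34 for the combination, and S100A9 with 0.40 and 0.61. S100A4 with GSK126 in MM.1S changed sign over the scalings tried, from 0.39 to -0.01.

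S100A13, a member involved in the release of FGF1 by a nonclassical route, was measured on every array. In MM.1S its levels were -0.56 and -0.39 with DMSO, 0.11 and 0.26 with GSK126, 0.13 and 0.40 with UNC0638, and 0.75 and 1.09 with the combination. In RPMI-8226 they were -0.04 and 0.34, 0.53 and 0.35, 0.64 and 0.40, and 1.16 and 0.95. The combination arrays lay above all other arrays in both lines, and the single agents overlapped each other. The combination gave 2.62-fold in MM.1S (1.39, SE 0.159) and 1.87-fold in RPMI-8226 (0.91, SE 0.19).

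S100A2, an epithelial member linked to p53, was dimmer in relation to its array. In MM.1S its levels were -3.01 and -3.63 with DMSO, -3.09 and -3.22 with GSK126, -2.66 and -2.85 with UNC0638, and -2.68 and -2.03 with the combination. In RPMI-8226 they were -2.39 and -1.95, -2.04 and -2.19, -1.58 and -1.59, and -1.07 and -1.70. GSK126 arrays overlapped DMSO arrays in both lines, and the UNC0638 and combination arrays lay above DMSO while overlapping each other. The combination gave 1.96-fold in MM.1S (0.97, SE 0.276) and 1.73-fold in RPMI-8226 (0.79, SE 0.249).

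S100A11, which binds annexin A1, was bright on all arrays. In RPMI-8226 it was at 6.16 and 5.83 with DMSO, 5.90 and 5.39 with GSK126, 6.00 and 5.91 with UNC0638 and 5.72 and 5.35 with the combination. In MM.1S it was at 5.08 and 4.92, 4.65 and 4.95, 5.18 and 5.24, and 5.20 and 5.24. With the combination it was thus lower on both arrays in RPMI-8226 (-0.46, SE 0.231) and higher on both in MM.1S (0.22, SE 0.12). Its second probe gave -0.40 and 0.07, and in MM.1S its combination and DMSO arrays overlapped. S100P, a member expressed in placenta and in several carcinomas, was not above background on any array, with levels from -6.83 to -4.45.

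**Figure D2:**
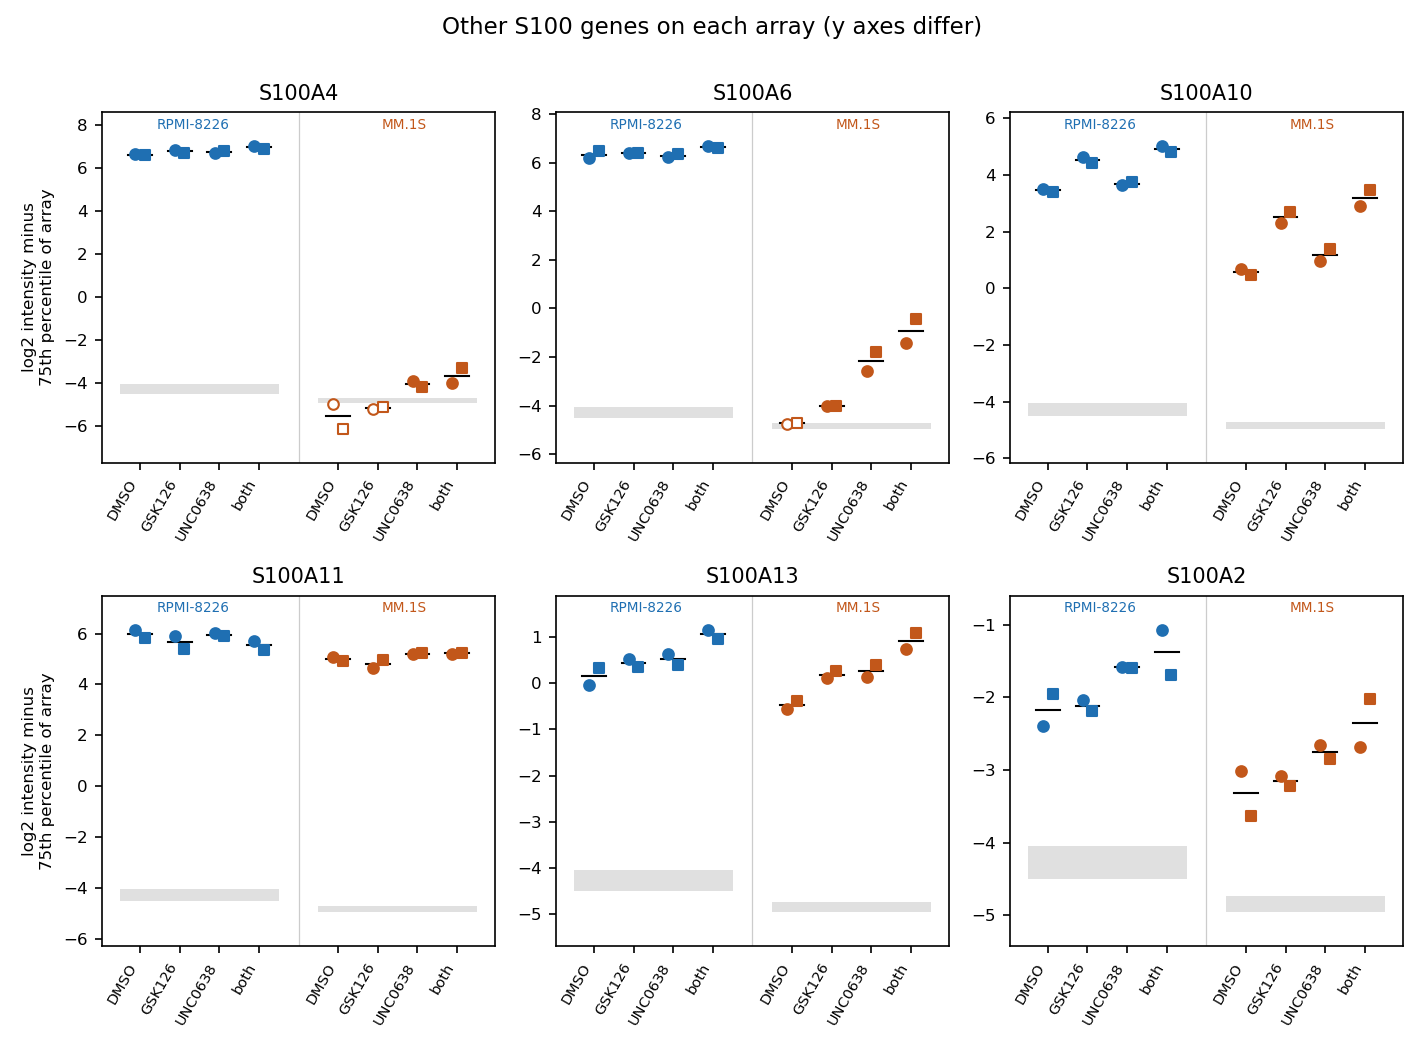
Levels of S100A4, S100A6, S100A10, S100A11, S100A13 and S100A2 (log2 intensity relative to the 75th percentile of the array, y axis) in each group (x axis), with the same symbols as the plot of the calgranulins. S100P is not drawn. S100A4 and S100A6 are bright in RPMI-8226 and near the grey background band in MM.1S, and S100A10 steps up with GSK126 in both lines.

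**Figure D3:**
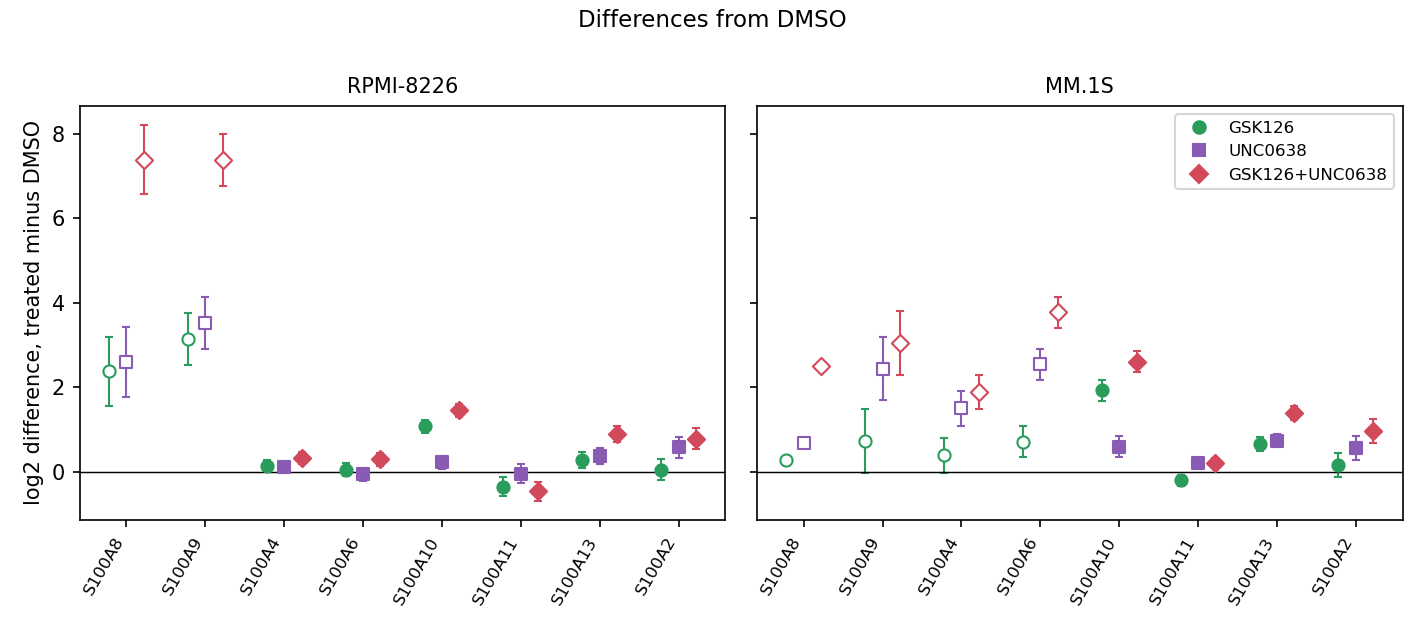
Log2 difference from DMSO (y axis) for the members other than S100A12 and S100P with GSK126, UNC0638 or both (colours), in each line. Bars are 1 standard error from limma, and S100A8 in MM.1S, which was not kept, has none. Open symbols mark differences in which at least 1 group was not above background on both arrays, which are not measured folds. In RPMI-8226 S100A8 and S100A9 stand far above the rest, and in MM.1S S100A6, S100A9 and S100A10 are highest with both inhibitors.

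Counts of members past the limma threshold (Benjamini-Hochberg adjusted p of 0.05 over all probes kept) stand beside the share of all genes, and nothing is read from them because the members were chosen on these contrasts. All members past the threshold were higher than DMSO. In RPMI-8226, 8 members were kept, and 1 passed with GSK126 (S100A10), 0 with UNC0638 and 4 with the combination (S100A8, S100A9, S100A10 and S100A13). Of the 16018 genes tested, 0.656% were higher and 0.0499% lower with GSK126, 0.649% and 0.0687% with UNC0638, and 8.16% and 4.73% with the combination. With the replicate number as a block, which pairs the samples of this line, 3 members passed with GSK126 (S100A8, S100A9 and S100A10) and 2 with UNC0638 (S100A8 and S100A9), beside 2.26% and 1.51% of genes higher. In MM.1S, 7 members were kept, and 1 passed with GSK126 (S100A10), 3 with UNC0638 (S100A4, S100A6 and S100A13) and 6 with the combination, all but S100A11. With 1 array left out, the RPMI-8226 GSK126 count was 0 whichever of the 8 arrays it was, the MM.1S GSK126 count was 0 without any of the 4 DMSO and GSK126 arrays, the MM.1S UNC0638 count was 1 without the second DMSO or the second UNC0638 array, and the MM.1S combination count was 3 without its second array. The shares of 16987 genes were 5.89% higher and 2.36% lower with GSK126, 13.8% and 16.5% with UNC0638, and 23.2% and 32.2% with the combination.

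Over 2-fold above DMSO, counted on group means whether or not DMSO was above background, were 3, 2 and 3 members in RPMI-8226 with GSK126, UNC0638 and the combination, against 4.17%, 3.14% and 9.38% of genes. In MM.1S the counts were 1, 3 and 5 members against 4.29%, 6.06% and 11.1% of genes. The median log2 difference of the kept members was 0.22, 0.30 and 0.85 in RPMI-8226 and 0.66, 0.74 and 1.89 in MM.1S, while the median over all genes lay between -0.11 and -0.01. With members at background in DMSO set to their lower bound, the MM.1S medians were 0.59 with UNC0638 and 1.11 with the combination, 3 of the 7 being at their bound, and the RPMI-8226 medians stayed at 0.22, 0.30 and 0.85. With GSK126 in MM.1S, 2 of the 7 had no fold and the median of the other 5 was 0.66. Members kept only through their treated groups had to lie above DMSO, so nothing is read from these medians. The 3 treatments of a line share its DMSO arrays. Taking the percentile only over probes above background on all arrays moved the median of all genes with the combination up by 0.13 in RPMI-8226 and 0.19 in MM.1S, and the share of higher among all called genes from 63.3% to 79.2% and from 41.8% to 59.4%. With UNC0638 in MM.1S that share went from 45.6% to 62.5%, and to 57.0% with quantile normalisation, and with GSK126 in MM.1S from 71.4% to 84.6%.

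The 140 genes placed around the cluster on chromosome 1 held 9 members, 8 other S100 genes, 42 genes of the skin barrier (SPRR, LCE and related genes of the epidermal differentiation complex) and 81 further genes within 1000000 bases. With the combination, 3 of 8 kept members, 4 of 12 kept skin barrier genes and 4 of 54 kept further genes were over 2-fold higher in RPMI-8226, and 5 of 7, 3 of 12 and 4 of 60 in MM.1S. Of all genes, 9.38% were over 2-fold higher in RPMI-8226 and 11.1% in MM.1S. The members were chosen on these values, and genes at background in DMSO were kept only through treated groups, so nothing is read from these counts. Of the 11 other S100 genes on the array only 2 were kept, S100A5 and S100Z, and neither passed with the combination in either line. S100Z was higher with UNC0638 in MM.1S (0.57, adjusted p = 0.023 by limma) and S100A5 lower (-0.43, adjusted p = 0.0386).

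**Figure D4:**
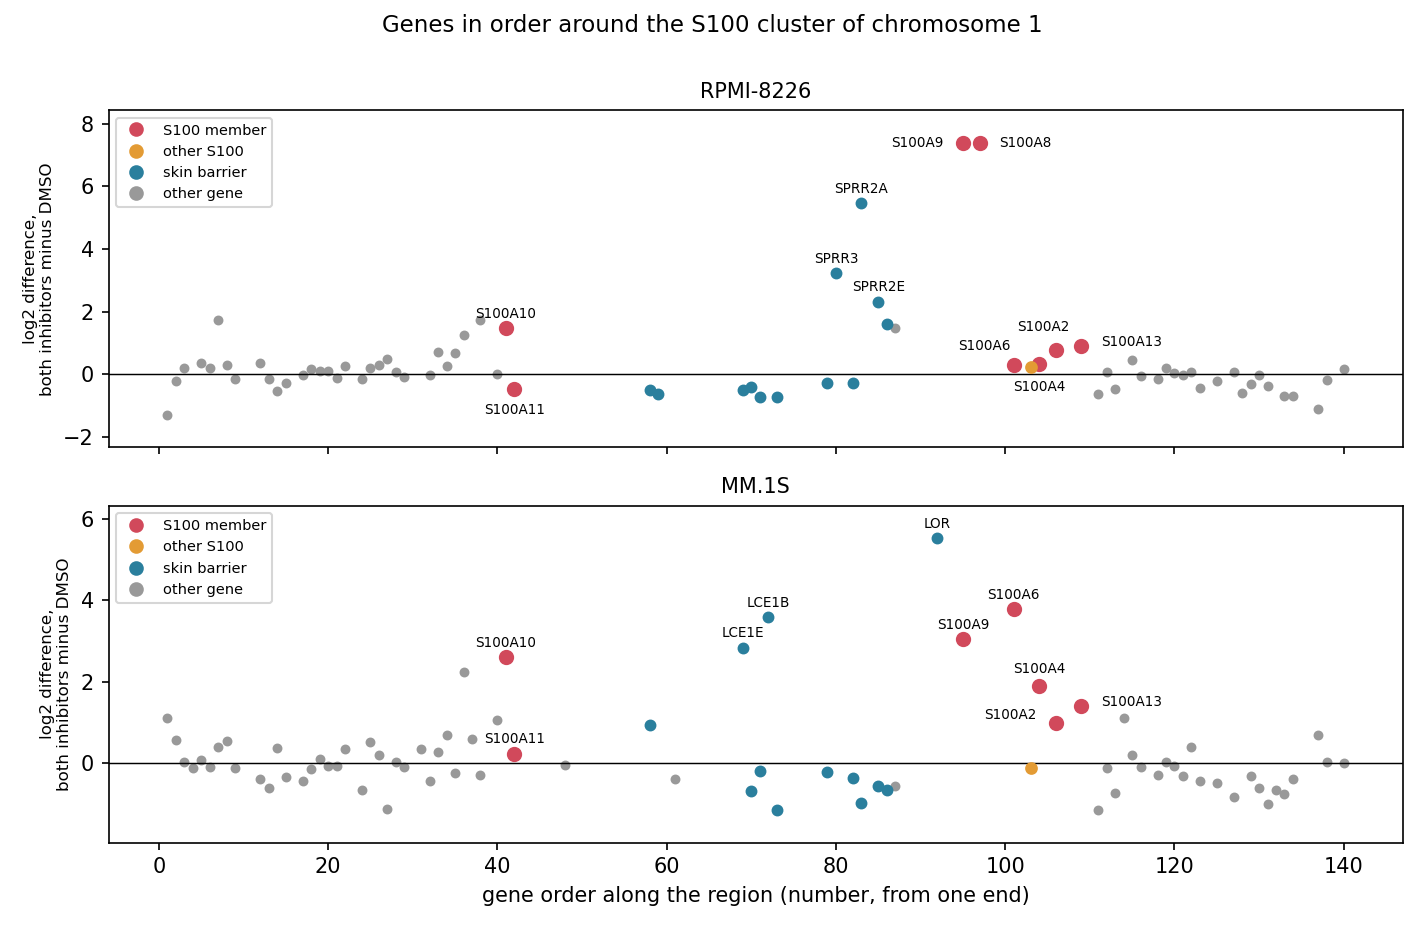
Log2 difference between both inhibitors and DMSO (y axis) for the genes around the S100 cluster in their order on the chromosome (x axis, gene number), in RPMI-8226 and MM.1S. Points are genes kept in that line, red for members, and the difference of a gene at background in DMSO is not a measured fold. The high points in RPMI-8226 are S100A9, S100A8 and SPRR2A, and in MM.1S LOR, S100A6 and LCE1B.

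The skin barrier genes that were higher with the combination differed between the 2 lines, and SPRR2A and SPRR2F were called in both, in opposite directions. Part of the difference comes from the filter, as LOR and LCE1B were not kept in RPMI-8226 and SPRR3 was not kept in MM.1S. The list medians were -0.35 in RPMI-8226 and -0.31 in MM.1S, and those of all genes -0.10 and -0.11. Here and in the lists below, genes at background with DMSO were kept only through treated groups, which favours calls of higher. Nothing is therefore read from the balance of higher and lower or from list medians. In RPMI-8226 3 of 12 kept genes were higher with the combination and 0 lower, beside 8.16% and 4.73% of all genes. SPRR2A, a cornified envelope precursor, went from -6.67 and -6.40, not above background, to -1.51 and -0.66, at least 9.92-fold (adjusted p = 0.00109), and SPRR2F was higher by 1.62 (adjusted p = 0.00585). SPRR3 was at least 2.44-fold higher (adjusted p = 0.0247), a call lost when any of 3 arrays (either DMSO array or the first combination array) was left out, with adjusted p from 0.0821 to 0.122. In MM.1S 4 of 12 were higher and 6 lower, beside 23.2% and 32.2% of all genes. LOR, the envelope protein loricrin, went from -6.75 and -6.63 to -1.21 and -1.12, at least 12.3-fold (adjusted p = 3.55e-05), LCE1B, with 1 of 2 DMSO arrays above background, was higher by 3.58 and LCE1E by 2.84, and SPRR2A was lower (-0.999, adjusted p = 0.000733). SPRR2F was lower in MM.1S as well (-0.68). SPRR2 and LCE genes are near-identical copies, so their probes may share signal. Of 9 keratinocyte markers, 2 were above background in RPMI-8226 and 1 in MM.1S with DMSO, and 0 passed by limma with the combination in either line.

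Among 36 receptors and binding partners of S100 proteins, 32 were kept in RPMI-8226. With the combination 4 of them were higher and 1 lower, beside 8.16% and 4.73% of all genes. Among the 4 were ANXA1 (annexin A1, the partner of S100A11), from 2.37 and 2.56 to 6.04 and 6.45 (3.78, adjusted p = 0.000389), CD36, a scavenger receptor (3.996, adjusted p = 0.0184, with 1 of 2 DMSO arrays above background), and ANXA6 (1.26, adjusted p = 0.0142). CD36 lost its call without either combination array (adjusted p 0.0587 and 0.11), and ANXA6 without any 1 of the 4 arrays compared (0.0606 to 0.0699). In MM.1S 10 of 31 were higher and 7 lower, beside 23.2% and 32.2% of all genes. Among the 10, ANXA1 was at least 4.34-fold higher (adjusted p = 0.00276 by limma). CYBB, the catalytic subunit of the phagocyte NADPH oxidase, was higher by 2.54 (adjusted p = 0.000184), NCF4 by 1.53 and CTSB by 1.33. ANXA2, the partner of S100A10, differed by 0.58 in RPMI-8226 and -0.31 in MM.1S and did not pass (adjusted p = 0.218 and 0.0784). The list medians were 0.11 in RPMI-8226 and -0.005 in MM.1S, and those of all genes -0.10 and -0.11.

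Neutrophil and monocyte genes were examined because S100A8 and S100A9 are abundant in those cells. Of 30 on the array 14 were kept in RPMI-8226. With the combination 5 were higher and 0 lower, beside 8.16% and 4.73% of all genes. They were ITGAM, the integrin CD11b (at least 11.4-fold, adjusted p = 0.00414), CAMP, the cathelicidin precursor (at least 6.83-fold, adjusted p = 0.000737), MNDA, a myeloid nuclear antigen (at least 4.24-fold, adjusted p = 0.0014), MMP9 (2.71, adjusted p = 0.0192) and CD14, the lipopolysaccharide co-receptor, named after its values were seen. ITGAM, CAMP and MNDA were not above background with DMSO and were kept only through treated groups, where they were high. MMP9 lost its call without either DMSO array or the first combination array (0.0715 to 0.106). In MM.1S 7 of 13 were higher and 3 lower, beside 23.2% and 32.2% of all genes. Among the 7 were ITGAM by 3.58 (adjusted p = 9.54e-05 by limma), TREM1 by 3.10, MMP9 by 1.996 and FPR1 by 1.89. FPR1 lost its call without any 1 of 6 arrays. The summed level of the list in RPMI-8226 was 4.99 to 5.48 with DMSO and 5.45 to 5.54 with the combination, which overlapped. In MM.1S it was 4.77 to 4.86 with DMSO and lower with the combination, at 4.62 to 4.71. Such a sum adds intensities over probes, so the brightest probes weigh most and it does not stand for the list. The median log2 difference of the kept genes was 0.47 in RPMI-8226 and 0.49 in MM.1S, beside -0.10 and -0.11 for all genes. Among granulocyte genes of the list, MPO and ELANE were not above background on any array, PRTN3 and CSF3R were above background on all 16, and LTF on all 8 RPMI-8226 arrays. Other genes of the list lay lower with the combination. LTF in RPMI-8226 was at 0.59 to 2.98 with DMSO and -0.86 to -0.22 with both inhibitors, without a call. In MM.1S CSF3R went from -2.47 to -2.09 with DMSO to -3.49 to -3.44, and CEBPB from 2.53 to 2.97 to 1.32 to 1.42. Of the 30 list genes, 10 to 14 were above background on both arrays in each group. T cell markers also differed, with 4 of 6 kept genes higher and 1 lower in RPMI-8226 with the combination (CD3G by 5.79, CD3D by 4.99, CD3E at least 6.78-fold) and a summed level of 0.28 to 0.31 with DMSO and 3.67 to 3.85 with the combination. In MM.1S 2 of 4 were higher and 1 lower, with a summed level of -0.98 to -0.91 and -0.08 to 0.07. Of 10 kept plasma cell markers, 1 was higher in RPMI-8226 (SLAMF7, 4.90) and 3 lower (TNFRSF17 -2.55, IRF4 -1.70, SDC1 -0.84, the calls of TNFRSF17 and SDC1 being lost without single arrays), and 8 were lower and 0 higher in MM.1S. The part of these marker shifts in the S100 levels was not tested.

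Of 23 other EF-hand calcium proteins kept in each line, 2 were higher and 0 lower with the combination in RPMI-8226. Of all genes, 8.16% were higher and 4.73% lower. Among the 2 proteins was NCALD (neurocalcin delta, at least 3.30-fold, adjusted p = 0.0355 by limma), whose call was lost without single arrays. In MM.1S 3 of the 23 were higher and 6 lower, beside 23.2% and 32.2% of all genes. PVALB, the calcium buffer parvalbumin, was higher by 2.25 (adjusted p = 0.00453 by limma), EFHB at least 2.46-fold higher and CALML3 lower (-0.71). Of the further genes beside the cluster, 3 of 54 were higher and 2 lower in RPMI-8226, and 10 of 60 and 19 in MM.1S. The same shares of all genes stand beside these counts. ANXA9 was lower in RPMI-8226 (-1.29, adjusted p = 0.00345) and higher in MM.1S (1.10, adjusted p = 0.00113).

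The genes whose profile over the 16 arrays was most like that of a member are given by Pearson's r, as a description over arrays that share lines and treatments. For S100A8 these included CD163, a macrophage scavenger receptor (0.968), HULC (0.963), MRAS (0.963) and XLOC_012981 (0.952), each with its highest group mean in RPMI-8226 with both inhibitors. For S100A10 they were SCRN1 (0.983), PRKCD (0.973), FNBP1L (0.966), SLC27A1 (0.966) and HOXB2 (0.965). For S100A4 they were SH2D2A (0.998), PCOLCE2 (0.998), CDKN2A (0.997), KAZALD1 (0.997) and MCTP1 (0.997), which differ mainly between the lines.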

How the data were processed

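The authors labelled total RNA with Cy3, hybridised 16 Agilent SurePrint G3 Human arrays and quantified them with Agilent Feature Extraction 10.7, per the labels. The deposited scanner files give a background-subtracted intensity per spot (62976 spots, 4259 controls). The deposited series table holds the same intensity within 0.6% and served as an alternative. From these, log2 intensity minus the array's 75th percentile over 58717 non-control spots was computed, and spots of 1 probe were averaged (50599 probes). In each line, probes were kept that the scanner marked well above background on both arrays of 1 or more groups. A gene with several probes was represented by its brightest, by the mean of all 16 arrays. Each line's 8 arrays were fitted with limma 3.58.1 (lmFit, eBayes) in R 4.3.3, and p-values were adjusted by Benjamini-Hochberg (threshold 0.05), and differences between lines with 1 fit over 16 arrays. Scripts were tested on simulated data. The labels do not say whether a replicate number marks a pairing. In RPMI-8226 a pairing was inferred, because deviations of same-numbered samples correlated at 0.25 to 0.42 in 6 of 6 pairs of groups. Standard errors and main calls come from fits without it, and the replicate block is an alternative. The members and lists were chosen with earlier results of these data known. Named genes were all members and, per list and line, up to 4 genes with the largest called change under the combination, with both treated arrays beyond both DMSO arrays. Some genes this rule named are not reported here. Probe positions are GRCh37, promoters GRCh38.p14.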

Additional observations from a re-analysis of the deposited data

Results flagged for a closer look

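The main S100A11 probe differed from DMSO with the combination by -0.46 in RPMI-8226 and by 0.22 in MM.1S on the log2 scale, with both arrays of each line on their own side of DMSO. Neither difference passed the limma threshold, the second probe gave -0.40 and 0.07 (SE 0.161), the latter with overlapping arrays, and the difference between the lines was not tested.

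For 9 other genes of the cluster the effect of the combination differed between the lines by a test of the difference itself (RPMI-8226 minus MM.1S, limma over 16 arrays, adjusted p in parentheses). It was larger in RPMI-8226 for SPRR2A by 6.46 (5.37e-05), SPRR2F by 2.30 (0.000299), SPRR2C by 2.06 (0.00209), LOC100132111 by 2.03 (0.0278) and CGN by 1.63 (0.044). It was smaller in RPMI-8226 for LOR by -5.54 (1.45e-06), LCE1B by -3.62 (0.00276), LCE1E by -3.35 (0.000381) and ANXA9 by -2.39 (5.37e-05). LOR and LCE1B in RPMI-8226 were not above background in any group, and DMSO signals were at background for SPRR2A and LOC100132111 in RPMI-8226 and for LOR in MM.1S, so these 4 values rest on background signals and their sizes are not measured. With normexp, the SPRR2A difference in RPMI-8226 was 1.91 in place of 5.46 and that of LOC100132111 0.43 in place of 1.73. SPRR3, NPR1, CHTOP and LCE1A did not pass the same test (adjusted p 0.0574, 0.141, 0.297 and 0.364).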

How the results depend on the processing

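Of the counts of S100 members under the alternatives, 174 stayed within 1.5 times the value reported and 42 moved further. Past the limma threshold, the count with GSK126 in RPMI-8226 was 0 without a filter on dim probes, 0 on the 2 groups alone and 3 with the replicate block. With UNC0638 there it was 2 with the replicate block and 1 in 1 fit over 16 arrays, and with the combination 2 when a probe had to be above background on all 8 arrays. In MM.1S with GSK126 it was 0 without a filter and 2 with normexp, with all 8 arrays above background, with the percentile over probes above background on all arrays, with the replicate block and on the 2 groups alone. With UNC0638 it was 1 without a filter and 1 with all 8 arrays above background, and with the combination 3 with all 8. Past 2-fold, normexp gave 1 (GSK126) and 0 (UNC0638) in RPMI-8226 and 0 (UNC0638) and 3 (combination) in MM.1S. The filter on all 8 arrays gave 1, 0 and 1 in RPMI-8226 for GSK126, UNC0638 and the combination, and 0 and 2 in MM.1S for UNC0638 and the combination. These filters leave fewer members to count, and for the others the cause was not tested. Shares of all genes were computed for the replicate block in RPMI-8226 with GSK126 and with UNC0638. They were not computed for the other alternatives or with 1 array left out. The number of calls over all genes can move with the setting too, so nothing is read from these counts about the S100 genes.

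Leaving out 1 array at a time gave 0 to 0 called members with GSK126 in RPMI-8226 and 3 to 4 with the combination. It gave 0 to 1 (GSK126), 1 to 3 (UNC0638) and 3 to 6 (combination) in MM.1S. Past 2-fold it gave 3 to 5 (combination) in RPMI-8226, with 5 without the second DMSO or second combination array, and 1 to 2 (GSK126) in MM.1S. CD8A in MM.1S with the combination was -0.35 and became 0.24 with the mean over its probes. In MM.1S replicate numbers correlated at 0.08 to 0.22, over 0.1 in 5 of 6 pairs, so the replicate block is only an alternative there, and it changed no other count by over 1.5 times. The slide was not run as a block because each line had 1 slide.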
